A study of Homo sapiens and Mus musculus with 16 samples.

Results

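The widest accessible regions of 2 matched mouse pancreatic cancer cell lines, one grown from a KPC primary tumor and one from KPC liver mets, were described here. A region was taken as wide when it spanned 1500 bp or more in the list deposited for either line. This width was met by 1244 of 68074 regions of the primary tumor list and by 474 of 80843 regions of the mets list, 1718 of 148917 in all. Because members were selected on width, their widths and the excess of wide regions in one list are a description and carry no test. The limit fell in a smooth part of both distributions. The nearest widths were 1500 bp inside and 1499 bp outside it in both lists, and the 10 bp from the limit upward and the 10 bp below it held 54 and 54 primary tumor regions and 30 and 31 mets regions.

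Open DNA was profiled by ATAC-seq, a method that cuts and tags accessible sites with a transposase, in 16 samples, or 4 groups of 4 replicates. Besides the KPC primary tumor and KPC mets lines, HPAF-II cells were profiled as HNF4G-KO and as control (Cas9). HPAF-II is an established human pancreatic adenocarcinoma line, and the labels give it Cas9 alone (genotype WT) or CRISPR knockout of HNF4G (genotype KO). Both KPC lines are labelled genotype WT, untreated and grown in DMEM with FCS. KPC mice are an engineered model in which Cre switches on tumor-driving alleles in the pancreas, and the labels do not say to what WT refers in these lines. The study describes the pair as isogenic, and each stage is represented by 1 cell line. One list was deposited per group, 364071 regions in all, so no value below has a replicate error and no test between the lines was possible. Each share is given with a Wilson 95% interval, which covers counting error only. How many reads entered each list is not known, and read depth and cell line cannot be told apart in any difference between lists. The study calls the HPAF-II replicates independent, and the sources used here do not say this of the KPC replicates. The cells were checked against markers. Many of all protein-coding genes had an accessible promoter, with counts given below, so such a region alone does not identify a cell type. All 7 ductal markers (Epcam, Krt7, Krt8, Krt18, Krt19, Cdh1 and Sox9) had an accessible region within 1 kb of a start site in both lists, against 2 and 1 of 6 acinar, 1 (Ttr) and 0 of 5 hepatocyte, 2 and 2 of 5 fibroblast, 0 and 0 of 5 leukocyte and 2 and 2 of 4 endothelial markers in primary tumor and mets, respectively.

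Accessible DNA is the part of the genome that nucleosomes leave free, mainly at promoters and enhancers. A typical open site is about the length that a nucleosome and its linker would occupy, and a much wider region forms where several neighboring nucleosomes are displaced or where the accessible flanks of adjacent sites run together. Promoters rich in CpG dinucleotides, divergent promoters that fire in both directions, and clustered enhancers are known settings of wide open chromatin.

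Sequences of the regions on which the results turn are shown first. Each is the central 300 bases of a wide region (mm10, plus strand), and none overlaps an exon of the GENCODE annotation, while the last holds a tRNA gene of the RefSeq annotation. In the first set, capitals mark the bases that lie between pieces of the same locus in the other list. They are shown because a gap in the other list was the most frequent difference at wide primary tumor regions. The windows come from the promoter regions of Arl8b, a small GTPase of lysosomes, and Memo1, both wide in primary tumor, and from a distal region near Klf6, a zinc finger factor, wide in mets.
Arl8b (primary tumor), chr6:108783826-108784125: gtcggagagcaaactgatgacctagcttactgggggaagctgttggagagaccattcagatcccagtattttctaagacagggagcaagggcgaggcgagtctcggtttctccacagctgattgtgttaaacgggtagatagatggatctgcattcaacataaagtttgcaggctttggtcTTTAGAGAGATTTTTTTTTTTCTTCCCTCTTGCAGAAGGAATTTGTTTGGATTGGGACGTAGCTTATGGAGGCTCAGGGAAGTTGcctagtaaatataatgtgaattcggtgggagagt
Memo1 (primary tumor), chr17:74295043-74295342: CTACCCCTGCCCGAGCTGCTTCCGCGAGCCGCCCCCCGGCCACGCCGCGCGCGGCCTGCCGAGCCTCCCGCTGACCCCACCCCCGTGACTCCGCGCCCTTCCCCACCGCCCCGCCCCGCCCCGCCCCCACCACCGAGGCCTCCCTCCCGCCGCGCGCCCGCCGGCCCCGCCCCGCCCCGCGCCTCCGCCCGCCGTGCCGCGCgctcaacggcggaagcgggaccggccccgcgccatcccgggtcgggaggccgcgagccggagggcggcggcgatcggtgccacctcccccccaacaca
near Klf6 (mets), chr13:5844799-5845098: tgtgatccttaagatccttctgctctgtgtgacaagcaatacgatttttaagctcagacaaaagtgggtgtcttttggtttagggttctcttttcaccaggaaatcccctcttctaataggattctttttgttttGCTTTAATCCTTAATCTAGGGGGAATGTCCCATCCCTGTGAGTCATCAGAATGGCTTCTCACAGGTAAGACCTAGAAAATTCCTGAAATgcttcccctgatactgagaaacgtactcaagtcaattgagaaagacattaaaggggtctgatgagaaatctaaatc
The 85 uncovered bases at Arl8b and the 89 near Klf6 lay in windows of 45% and 40% GC, whereas the 202 at Memo1 belonged to one of 83.7% GC with 51 CpG dinucleotides.

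In the second set, capitals mark matches to the AP-1 consensus (TGACTCA or TGAGTCA) in the regions near Pofut2 and at Hsp90ab1, CpG dinucleotides at Pim1, and a tRNA gene near Mrpl58. They are shown because these features are compared between wide and other regions further on.
near Pofut2 (primary tumor), chr10:77251832-77252131: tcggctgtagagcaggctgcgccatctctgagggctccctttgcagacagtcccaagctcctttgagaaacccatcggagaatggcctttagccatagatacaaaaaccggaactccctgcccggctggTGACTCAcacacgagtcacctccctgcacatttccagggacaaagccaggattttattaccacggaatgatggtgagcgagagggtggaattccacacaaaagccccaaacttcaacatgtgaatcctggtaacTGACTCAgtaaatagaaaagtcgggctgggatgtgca
Hsp90ab1 (mets), chr17:45573428-45573727: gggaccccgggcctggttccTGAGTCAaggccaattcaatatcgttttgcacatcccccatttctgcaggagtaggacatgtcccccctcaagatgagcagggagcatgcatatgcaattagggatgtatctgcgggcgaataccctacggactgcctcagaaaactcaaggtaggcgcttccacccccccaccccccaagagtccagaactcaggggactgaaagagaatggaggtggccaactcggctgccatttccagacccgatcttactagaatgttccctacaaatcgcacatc
Pim1 (primary tumor), chr17:29490307-29490606: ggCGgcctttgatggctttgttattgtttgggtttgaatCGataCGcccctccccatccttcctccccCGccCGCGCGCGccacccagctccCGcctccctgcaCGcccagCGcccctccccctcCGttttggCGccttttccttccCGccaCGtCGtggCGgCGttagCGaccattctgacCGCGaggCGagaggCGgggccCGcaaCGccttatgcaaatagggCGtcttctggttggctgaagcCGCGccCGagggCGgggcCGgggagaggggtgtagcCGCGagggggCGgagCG
near Mrpl58 (primary tumor), chr11:115413106-115413405: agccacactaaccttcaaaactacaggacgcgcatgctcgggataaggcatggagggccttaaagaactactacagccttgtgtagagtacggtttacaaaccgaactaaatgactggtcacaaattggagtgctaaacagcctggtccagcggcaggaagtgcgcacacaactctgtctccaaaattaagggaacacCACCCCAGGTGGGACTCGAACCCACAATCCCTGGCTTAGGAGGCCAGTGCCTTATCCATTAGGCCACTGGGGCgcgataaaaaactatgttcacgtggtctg
The Pim1 window held 35 CpG dinucleotides and the Pofut2 window 2 AP-1 matches. The capitals near Mrpl58 are the 73 bases of n-TRcct3 (chr11:115413304-115413376, minus strand), an arginine tRNA gene and 1 of 3 tRNA genes in that region.

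Wide regions formed 1.83% (1.73 to 1.93) of the primary tumor list and 0.586% (0.536 to 0.641) of the mets list, although the mets list held more regions. They made up 2.11 of 40.8 Mb covered in primary tumor and 0.791 of 40.3 Mb in mets, or 5.17% and 1.965% of the covered length. The median wide region was 1652 bp long in primary tumor and 1619 bp in mets, against 516 and 409 bp over all regions. Widths of 2000 bp or more were reached by 82 and 21 regions, and of 2500 bp or more by 2 and 1. In the HPAF-II lists 3312 of 118107 control regions (2.80%) and 2227 of 97047 HNF4G-KO regions (2.29%) were as wide. Joining regions of one list less than 500 bp apart before the width was measured raised the counts to 3097 and 2309, the mets count by the larger factor.

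**Figure D1:**
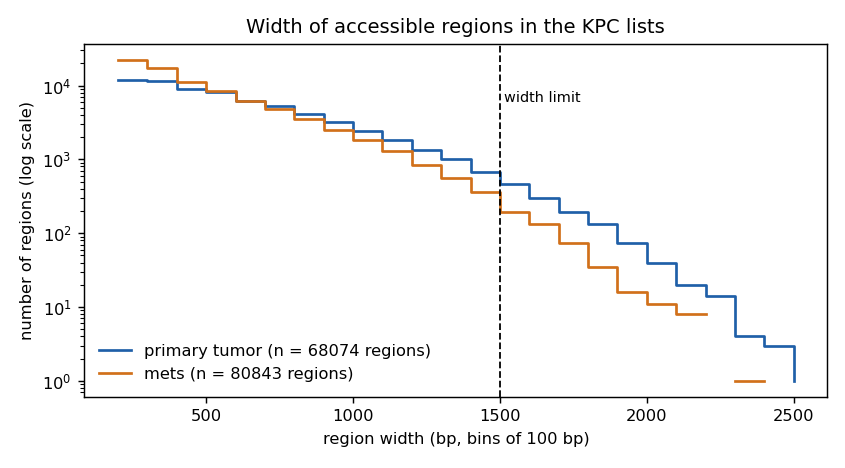
Number of regions (log scale) in each 100 bp bin of width in the primary tumor and mets lists, with the width limit dashed. The mets list holds more of the narrowest regions and fewer of the widest, and a single region per list, of 4141 and 4131 bp, lies off the right edge.

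Wide regions were also high in the deposited score, which the files give per region without a scale and which was used only as a rank within its list. Their median rank was the 74.8th percentile in primary tumor and the 77.3th in mets, and 91.4% (89.7 to 92.8) and 94.5% (92.1 to 96.2) scored above the median of their list.

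Most wide regions lay at promoters. Within 1 kb of an annotated start site were 1020 of 1244 wide primary tumor regions, 82.0% (79.8 to 84.0), and 365 of 474 wide mets regions, 77.0% (73.0 to 80.6), against 27.9% and 26.3% of all regions in the 2 lists. The share rose with each step of width. In primary tumor it was 16.1% under 500 bp, 28.9% from 500 to under 1000 bp and 67.2% from 1000 to under 1500 bp, and in mets 17.6%, 34.9% and 67.1%. A start site lay inside 1001 of the wide primary tumor regions (80.5%, 78.2 to 82.6) and 354 of the wide mets regions (74.7%, 70.6 to 78.4). Wider regions cover more bases and so meet a start site more readily, and the part of length in these shares was not tested. When the 474 widest regions were taken from each list, the limit was 1702 bp in primary tumor and 1500 bp in mets. The primary tumor promoter share was then 86.3% (82.9 to 89.1), and its interval did not overlap that of mets. Since the share rises with width, list and limit cannot be told apart there. At 1500 bp in both lists the intervals overlapped. With equal limits of 1000 and 2000 bp the shares were 69.3% and 90.2% in primary tumor and 68.0% and 90.5% in mets.

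Start sites of 1151 protein-coding genes fell in wide primary tumor regions and those of 416 in wide mets regions, 5.25% and 1.9% of 21924 annotated genes. Any accessible promoter was found for 12697 of these 21924 genes in primary tumor and for 12945 in mets. Of these, 9.07% (8.58 to 9.58) and 3.21% (2.92 to 3.53) had a wide one. Some regions were shared by several genes. Start sites of 2 or more protein-coding genes were covered by 187 wide primary tumor regions (15.03%, 13.2 to 17.1) and 77 wide mets regions (16.2%, 13.2 to 19.8), and in 169 and 70 of these the genes formed a divergent pair. Among regions with any protein-coding start site, the share with 2 or more genes was 19.5% (17.1 to 22.1) of wide and 9.14% (8.62 to 9.69) of other primary tumor regions, and 22.8% (18.7 to 27.6) and 9.09% (8.59 to 9.62) in mets, where a longer region can again meet more start sites. Where a wide primary tumor region held start sites of 1 protein-coding gene on 1 strand (773 regions), it reached a median of 630 bp upstream and 1050 bp downstream of the most upstream site, and 61.5% of its bases lay downstream.

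The widest region of both lists was the same locus and was not a typical promoter. It spanned 4141 bp in primary tumor (chr17:39843072-39847212) and 4131 bp in mets (chr17:39843069-39847199), covered the long noncoding RNA genes Gm26917 and Gm42418, and overlapped Rn18s-rs5, a pseudogene related to ribosomal 18S RNA, by 859 and 846 bp. Its score rank was low for a wide region, at the 29.0th and 38.2th percentile. Such sequence is present in many near-identical copies in the genome, so reads assigned to it may come from other copies.

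Below it, the widest primary tumor regions included promoters that were broken in mets. The region over the start sites of Nek8, a kinase of the primary cilium, and Tlcd1 (chr11:78176216-78178783) was 2568 bp long and was listed as pieces of 974 and 1076 bp in mets. At Ywhaz, an adaptor that binds phosphorylated proteins, 2415 bp (chr15:36792330-36794744) became 669 and 1323 bp. Acot7, an acyl-CoA thioesterase, had 2363 bp (chr4:152185200-152187562) against 1008 and 1018 bp. Ptprk, a receptor-type tyrosine phosphatase, had 2330 bp (chr10:28074425-28076754) against 4 pieces of 570, 343, 961 and 213 bp. These 4 promoters were open over 79.8%, 81.9%, 84.6% and 89.1% of the same bases in mets, so most of their length was also accessible there.

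Other promoters among the 10 widest kept a wide region in mets. At Cdkn1a, which encodes the cell cycle inhibitor p21, the primary tumor region of 2445 bp (chr17:29093466-29095910) was matched in mets by 433 bp over the start site and 1580 bp downstream. At Tmc6 2452 bp (chr11:117779403-117781854) met 1942 and 426 bp, and at Spag9, a kinase scaffold, 2378 bp (chr11:93994708-93997085) met 1801 and 614 bp. The divergent promoter of Clcn2, a chloride channel, and Polr2h, an RNA polymerase subunit, was a single region in both lists, 2286 bp in primary tumor (chr16:20715959-20718244) and 2182 bp in mets.

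The widest mets regions, by contrast, were all wide in primary tumor as well. Hsp90ab1, a heat shock chaperone, had 2349 bp in mets (chr17:45572404-45574752) and 2266 bp in primary tumor. Nmt2, an N-myristoyltransferase, had 2180 and 2191 bp, Triobp, an actin-binding protein, 2180 and 2240 bp, and Pde5a, a cGMP phosphodiesterase, 2178 and 2160 bp. The divergent pair Nab2, a corepressor of EGR factors, and Nemp1 shared 2134 bp in mets and 2095 bp in primary tumor. Usp24, a deubiquitinase, had 2122 and 2065 bp, and Lamc1, a laminin chain of basement membrane, 2111 and 2054 bp. Both lists thus held one wide region at each of these promoters.

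At wide primary tumor regions the mets list was more often split than wide. The mets list held a region of 1500 bp or more at 403 of 1244 (32.4%, 29.9 to 35.0), a single narrower region at 277 (22.3%, 20.04 to 24.7), and 2 or more regions, none of them wide, at 564 (45.3%, 42.6 to 48.1). The reverse comparison had another makeup. At 474 wide mets regions primary tumor was wide at 403 (85.0%, 81.5 to 88.0), narrower at 45 (9.49%, 7.17 to 12.5) and split at 26 (5.49%, 3.77 to 7.92). No wide region of either list lacked a counterpart, which allows a share of up to 0.308% and 0.804%, whereas 8.51% of all primary tumor regions and 20.2% of all mets regions had none. A wide region covers more bases and can meet more neighbors, so the shares were read against narrower widths. Over all widths 3.6% of primary tumor regions were split in mets and 0.421% of mets regions were split in primary tumor. From 1000 to under 1500 bp the shares were 16.4% (15.6 to 17.3) and 2.52% (2.12 to 3.00), and from 500 to under 1000 bp 2.46% and 0.676%.

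The unequal number of wide regions sets part of these shares, since 403 shared loci are a larger share of 474 than of 1244. With 474 regions taken from each list, 40.9% (36.6 to 45.4) were wide in the other list in both directions. This equality is arithmetic, since the same shared loci are counted from both sides. The share split was 50.8% (46.4 to 55.3) of primary tumor regions in mets against 5.70% (3.94 to 8.16) of mets regions in primary tumor. These sets had unequal limits, 1702 bp in primary tumor and 1500 bp in mets, and the share of primary tumor regions split rose with width. Joining regions of the other list less than 500 bp apart removed most splits. Mets was then wide at 69.3% (66.7 to 71.8) of wide primary tumor regions and split at 1.45%, and primary tumor was wide at 90.5% (87.5 to 92.8) of wide mets regions.

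**Figure D2:**
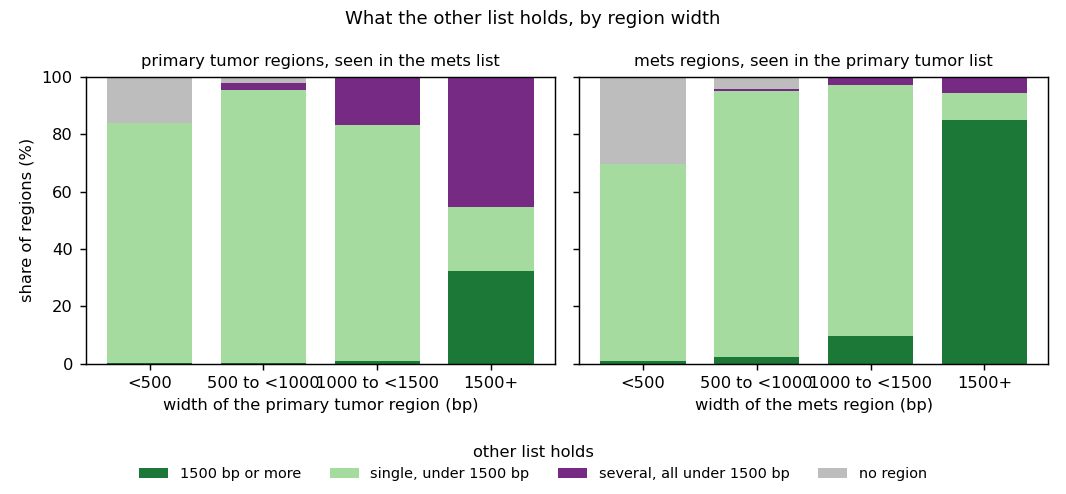
Share of primary tumor regions (left) and mets regions (right), by width, at which the other list holds a region of 1500 bp or more, a single shorter region, several shorter regions or none. Of the widest primary tumor regions 45.3% are split in mets, while 5.49% of the widest mets regions are split in primary tumor.

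Promoters and distal regions differed modestly in this respect. Among wide primary tumor regions, 30.4% (27.6 to 33.3) of 1020 at promoters and 41.5% (35.3 to 48.1) of 224 away from them were wide in mets, while 46.7% (43.6 to 49.7) and 39.3% (33.1 to 45.8) were split. The intervals of the first pair did not overlap and those of the second did. The median score rank was the 74.4th percentile for regions wide in both, the 80.5th for those narrower in mets and the 72.6th for those split.

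The 403 loci wide in both lists were close in extent. The primary tumor region was wider at 282 and the mets region at 118, with a median difference of 40 bp (range -354 to 865, primary tumor minus mets). Widths lay within 100 bp of each other at 282 loci (70.0%, 65.3 to 74.2), and both edges lay within 50 bp at 171 (42.4%, 37.7 to 47.3). The largest excess in primary tumor was at Cdkn1a, and the largest in mets was at Pxn, the focal adhesion adaptor paxillin, with 1957 bp in mets (chr5:115542417-115544373) against 1603 bp.

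**Figure D3:**
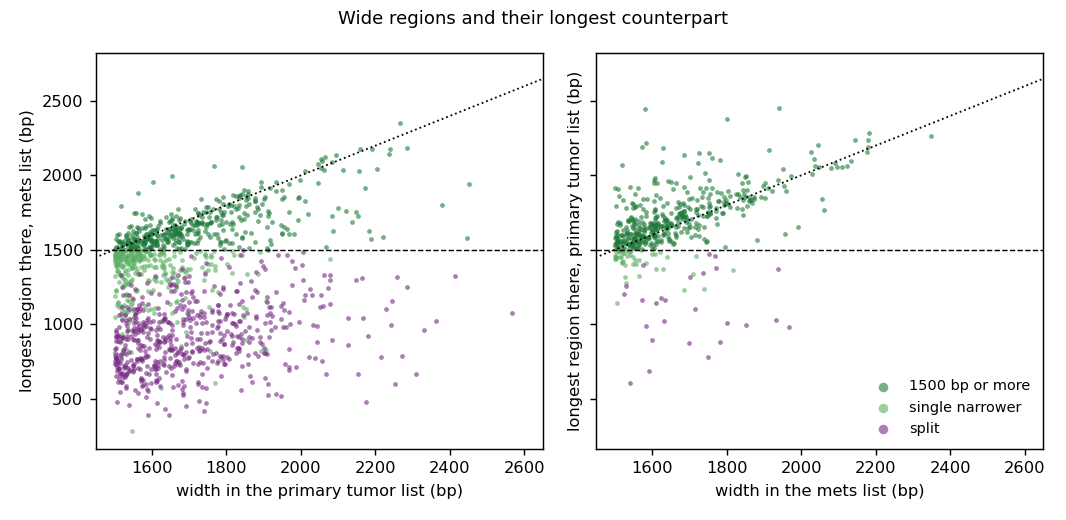
Width of each wide region of the primary tumor list (left) and the mets list (right) against the longest overlapping region of the other list, in bp, colored by what the other list holds, with equality dotted and the width limit dashed. Points of regions wide in both, which reach the limit on both axes by selection, follow the line of equality. Split regions lie between about 400 and 1500 bp on the left. The widest locus of both lists is not drawn.

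The splits were mostly short gaps in otherwise shared regions. Of the 564 split primary tumor regions, 502 were in 2 pieces, 60 in 3 and 2 in 4, at Ptprk and Arl8b. The 628 gaps had a median of 161 bp (51 to 1061), and 25% were under 100 bp, 61.9% under 200 bp and 97.1% under 500 bp. No gap was under 51 bp, which is also the smallest distance between any neighboring regions in either list. The pieces together covered a median of 83.4% of the primary tumor region, and the longest had a median of 901 bp. The 26 splits in the other direction had 28 gaps with a median of 88.5 bp.

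The breaks were placed downstream of the start site far more often than upstream. In split primary tumor regions with start sites of 1 protein-coding gene on 1 strand, the center of 351 of 418 gaps (84.0%, 80.1 to 87.2) was downstream of the most upstream start site, at a median of 399 bp. These regions themselves had 64.5% of their bases downstream. Between 100 and 800 bp downstream lay 293 gaps (70.1%, 65.5 to 74.3), and within 100 bp of the start site on either side 11 (2.63%, 1.48 to 4.65). The share of region bases in these zones is not given, and departure from even placement was not tested. Gap centers were thus seldom close to the most upstream start site. Whether a gap covered any start site was not counted.

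**Figure D4:**
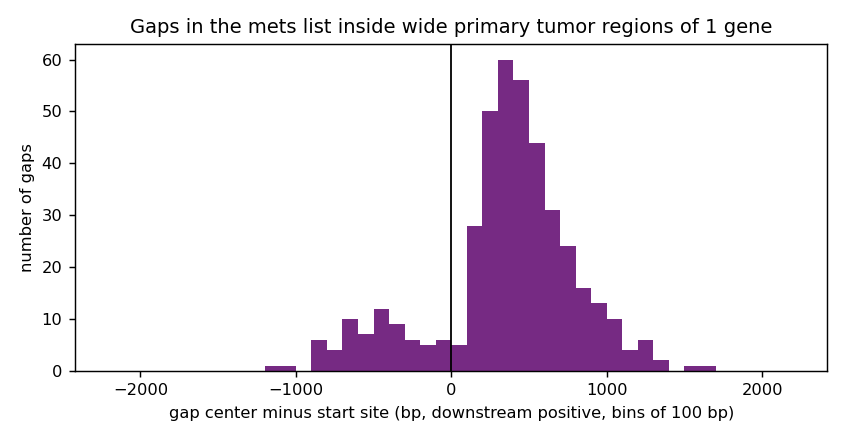
Number of mets gaps per 100 bp bin of distance from the start site, for 418 gaps inside wide primary tumor regions of 1 protein-coding gene. Counts peak between 300 and 500 bp downstream and fall to 11 within 100 bp of the start site.

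Gap bases at promoters were richer in G and C than the rest of the same region. In 476 split promoter regions of primary tumor, median GC content was 66.2% in the gaps and 60.8% in the other bases, and the gap was higher in 311 (65.3%, 60.95 to 69.5). Away from promoters it was 49.5% and 51.0%, and the gap was higher in 38 of 88 (43.2%, 33.3 to 53.6). In the 26 mets regions split in primary tumor the order was the other way, 45.8% in gaps and 55.1% elsewhere, with the gap higher in 5 (19.2%, 8.51 to 37.9). How G and C content affected recovery of reads in either set of libraries was not tested.

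The regions in 3 or 4 pieces included promoters of genes with varied roles. Arl8b had 2253 bp in primary tumor (chr6:108782850-108785102) and pieces of 596, 419, 403 and 272 bp in mets, and 73.8% of it was covered there. Sp3, a zinc finger factor of GC boxes, had 2216 bp (chr2:72978885-72981100) against 419, 247 and 779 bp. Memo1 had 2228 bp (chr17:74294079-74296306) against 280, 347 and 1101 bp, Man2a1, a Golgi mannosidase, 2245 bp (chr17:64599932-64602176) against 1153, 506 and 414 bp, and Lbh 2272 bp (chr17:72917225-72919496) against 624, 787 and 456 bp. Nedd4l, a ubiquitin ligase, had 2180 bp against 914, 209 and 921 bp. The region beside Fjx1 (chr2:102450259-102452434), 65 bp from a start site, kept least, with 229, 231 and 475 bp of 2176 bp. These regions stayed open in mets over 43.0% to 88.6% of their length.

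A single narrower region usually fell just short of the limit. Of 277 such mets counterparts 259 were 1000 bp or more, with a median of 1385 bp. The largest losses of width included the following promoters. Pim1, a serine/threonine kinase, had 1892 bp in primary tumor (chr17:29489511-29491402) and 817 bp in mets. Smarca5, a chromatin remodeling ATPase, had 1852 bp (chr8:80738326-80740177) and 893 bp, Mxd4, a repressor of the MYC network, 1755 bp (chr5:34186787-34188541) and 821 bp, and Arntl, the clock factor BMAL1, 1678 bp (chr7:113206661-113208338) and 853 bp. Ptprm, another receptor-type phosphatase, had 1769 bp (chr17:67353287-67355055) and 602 bp, Tprn 1626 bp (chr2:25262072-25263697) and 573 bp, and Rab11fip3, an effector of endosomal Rab proteins, 1848 bp (chr17:26068076-26069923) and 1046 bp. The largest loss was at a distal region 12766 bp from Emp2, with its center inside a gene, where 1546 bp (chr16:10299560-10301105) in primary tumor met 283 bp in mets.

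Where mets was wide and primary tumor was not, the losses were smaller. Primary tumor counterparts that were narrower had a median of 1451 bp and none was under 1141 bp. Itga6, a laminin-binding integrin subunit, had 1686 bp in mets (chr2:71786605-71788290) and 1228 bp in primary tumor. Spg7, a mitochondrial protease, had 1739 bp (chr8:123064782-123066520) and 1236 bp, Rin2 1817 bp (chr2:145675064-145676880) and 1361 bp, Pank2, a pantothenate kinase, 1718 bp (chr2:131261858-131263575) and 1456 bp, and Fen1, a flap endonuclease sharing its region with Tmem258, 1709 bp (chr19:10203558-10205266) and 1334 bp.

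Among the 26 mets regions split in primary tumor were a stem cell receptor and a TGF-beta receptor. Lgr5 had 1932 bp in mets, and primary tumor held 330 and 1025 bp, or 69.8% of the bases. Tgfbr2, the type II TGF-beta receptor, had 1771 bp (chr9:116174335-116176105) against 243 and 1376 bp. Get4, which helps insert tail-anchored membrane proteins, had 1768 bp (chr5:139251851-139253618) against 1458 and 325 bp. The region near Klf6 (chr13:5843966-5845932), 11629 bp from the nearest start site, had 1967 bp against 979 and 914 bp. By the definition of a split, none of their primary tumor pieces reached the width limit.

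**Figure D5:**
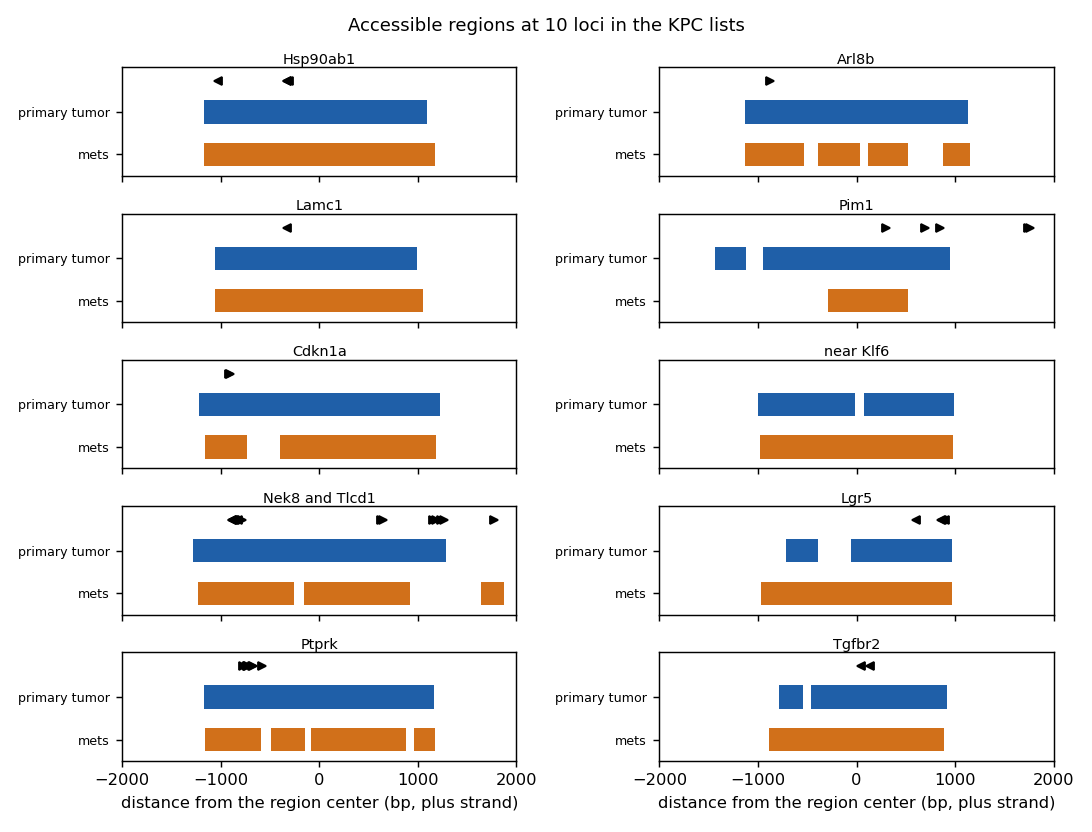
Regions of the primary tumor (upper bars) and mets (lower bars) lists at 10 loci, in bp from the center of the wide region along the plus strand, with arrowheads at protein-coding start sites pointing in the direction of transcription. Hsp90ab1 and Lamc1 are single wide bars in both lists, Nek8 and Tlcd1, Ptprk and Arl8b are broken in mets, and Klf6, Lgr5 and Tgfbr2 are broken in primary tumor.

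Away from promoters, 224 primary tumor and 109 mets regions were wide. Their median distance to a start site was 10884 and 8992 bp, and the center of 52.2% (45.7 to 58.7) and 44.95% (35.9 to 54.3) lay inside a gene. One 4022 bp from Fhl2, a LIM domain cofactor (chr1:43167983-43170065), had 2083 bp in primary tumor and 2090 bp in mets and was the widest distal region of the mets list. Regions 26580 bp from Dock9 (chr14:121824417-121826459) and 31482 bp from Rassf8 (chr6:145713207-145715266) had 2043 and 2060 bp and were each split once in mets, into 970 and 990 bp and into 859 and 1121 bp.

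Wide distal regions of the mets list were mostly shared. One lay 1490 bp from Msln, which encodes the pancreatic cancer antigen mesothelin (chr17:25755868-25757710), with 1843 bp in mets and 1901 bp in primary tumor. One 16022 bp from Bhlhe41, a clock repressor (chr6:145881580-145883384), had 1805 and 1808 bp, and one 12162 bp from Gpat4 (chr8:23166168-23168065) had 1898 and 1932 bp. The region near Npy (chr6:49655254-49657191), 165519 bp from that neuropeptide gene, had 1938 bp in mets and was split into 539 and 1373 bp in primary tumor. Nearest genes are given as positions only, and no link between a region and a gene was measured.

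Genes of tRNA were a recurrent feature. A tRNA gene lay in 12 wide primary tumor regions (0.965%, 0.553 to 1.68) and in 8 wide mets regions (1.69%, 0.858 to 3.29), against 0.229% and 0.209% of all regions. A wide region is longer and so more likely to include any short gene. All 8 mets regions were wide in primary tumor. They included a cluster of 4 tRNA genes near Cfap126, with 1750 bp in primary tumor (chr1:171101829-171103578) and 1790 bp in mets, and the 3 arginine tRNA genes near Mrpl58, with 1992 bp (chr11:115412260-115414251) and 1849 bp. Several are near-identical copies, and reads could be split between them. MicroRNA genes lay in 13 primary tumor and 4 mets wide regions, or 1.05% (0.612 to 1.78) and 0.844% (0.329 to 2.15), against 0.137% and 0.111% of all regions. All counted as promoter regions, a call to which an annotated microRNA start site itself contributes.

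Named gene groups, chosen with earlier results of these data known, were small, so each count of wide promoters is to be read against the 5.25% (primary tumor) and 1.9% (mets) of all protein-coding genes. Counts of genes with any promoter region, here and below, have another background, the number of all genes with any accessible promoter given above. A gene was called wide only where a wide region held its start site, so wide distal regions near a gene were not counted. Of 25 pancreas and foregut transcription factors, 1 was wide in primary tumor, Hhex with 2012 bp against 1199 bp as the longest mets piece, and none in mets. None of 39 Hox genes was wide, and 1 and 2 of them had any region within 1 kb of a start site. Of 27 immediate early and AP-1 genes, 26 had a promoter region in each list, but only Egr1 (1868 bp, longest mets piece 910 bp) and Dusp1 (1846 and 1117 bp) were wide, and only in primary tumor. None of 14 TGF-beta and BMP feedback genes and none of 10 abundant noncoding RNA genes had a start site in a wide region of either list.

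The same shares over all genes apply to the next lists, which held 0 to 3 wide members each. Of 25 epithelial genes 2 were wide. Krt19, the ductal keratin, had 1510 bp in primary tumor and a longest mets piece of 739 bp, and Spint2, a serine protease inhibitor, had 1608 and 697 bp. A separate distal region with Krt19 as its nearest gene was wide in both lists, with 1694 bp in primary tumor and 1633 bp in mets. Of 20 mesenchymal transition genes, Vim was wide in primary tumor (1815 against 1344 bp) and Tgfbr2 in mets. Of 25 pancreatic cancer driver genes, all 25 had a promoter region in both lists. Gnas (1619 against 881 bp) and Brca1 (1508 against 1443 bp) were wide in primary tumor and Tgfbr2 in mets. Of 15 Hippo pathway genes 3 were wide in primary tumor. Wwtr1, which encodes the coactivator TAZ, was wide in both lists with 1950 and 1604 bp, Tead3 had 1507 against 1418 bp and Amotl2 1501 against 788 bp.

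Ribosomal protein and histone genes were taken as large families. Of 76 ribosomal protein genes, 73 had a promoter region in each list and 2 were wide in primary tumor, Rpl10 (1691 against 1350 bp) and Rpl10a (1637 against 1306 bp), and none in mets. Of 67 histone genes, 8 had a start site in a wide primary tumor region and 4 in a wide mets region, with 2 in both. The shares in primary tumor were 2.63% (0.725 to 9.10) of ribosomal protein genes and 11.9% (6.18 to 21.8) of histone genes, with overlapping intervals, against 5.25% of all genes. The 8 histone genes lay in 4 regions. The longest, over Hist2h2ab, Hist2h2ac and Hist2h2be and over Bola1 (chr3:96219589-96221660), covered start sites of 6 annotated genes in 2072 bp and was split into 883 and 1245 bp in mets. The divergent pair Hist1h1e and Hist1h2be shared 1969 bp in primary tumor and 1939 bp in mets (chr13:23620716-23622654). Histone genes are near-identical copies, and how reads with several matches were treated is not given in the sources used here.

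Wide promoters in the mouse lines were more often wide in the human line too. Of 15755 mouse genes with a same-named human protein-coding gene, 17.4% (16.8 to 17.97) had a start site in a region of 1500 bp or more in HPAF-II control. The share was 48.5% (45.5 to 51.5) of 1041 genes wide in primary tumor, 58.0% (52.9 to 62.9) of 376 wide in mets and 60.1% (54.7 to 65.2) of 328 wide in both. It was 19.7% (18.99 to 20.5) of 10443 genes with a region of either KPC list within 1 kb and none wide. That last group did not require a start site inside the region, whereas the wide groups did. In HNF4G-KO the same shares were 42.8%, 49.2%, 50.9% and 13.5%, with 12.5% over all genes. The order was the same with a human limit of 1000 bp, where shares in control were 82.8%, 86.4%, 86.9% and 61.9%, and 49.7% over all genes. The human lists were not used to choose the mouse regions.

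Single genes showed both outcomes. The longest region over any start site of NAB2 was 2109 bp in control and 2147 bp in HNF4G-KO, of LAMC1 2126 and 2105 bp, and of CLCN2 2167 and 2342 bp, close to the widths of Nab2, Lamc1 and Clcn2 in both KPC lists. PTPRK had 2073 and 2002 bp, nearer to the 2330 bp of primary tumor than to the 570 bp over a start site in mets. The longest mets piece anywhere in the Ptprk region was 961 bp. LGR5 had 2048 bp in control and 1090 bp in HNF4G-KO, and USP24 2175 and 1326 bp. HSP90AB1 had only 1085 and 1082 bp and KRT19 431 and 498 bp. Start sites of a gene may differ between species, so these widths may belong to different promoters.

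Sequence content set wide regions apart from narrower ones of the same class. In the central 300 bases, wide promoters of primary tumor had a median GC content of 66.3% and an observed over expected CpG ratio of 0.81, against 60.7% and 0.67 in other promoter regions of at least 300 bp. In mets the values were 64.7% and 0.78 against 60.0% and 0.66. Wide distal regions had 50% GC in both lists, against 47.3% and 47.0% in other distal regions, with CpG ratios of 0.27 and 0.25 against 0.20 in both. Promoters thus carried the CpG-rich wide regions, whereas distal wide regions remained CpG-poor.

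Matches to AP-1, the dimer of Fos and Jun proteins, were rarer at the center of wide regions than of narrower ones. AP-1 letters (TGACTCA or TGAGTCA, which are each other's reverse complement) were found in 16.5% (12.2 to 21.9) of 224 wide distal regions of primary tumor and in 38.4% (37.9 to 38.9) of 38744 other distal regions. In mets the shares were 22.9% (16.0 to 31.7) of 109 and 39.1% (38.7 to 39.6) of 40948. At promoters they were 3.04% (2.15 to 4.28) against 12.4% (11.9 to 12.9) in primary tumor and 4.66% (2.93 to 7.33) against 12.3% (11.8 to 12.8) in mets. Over all regions of at least 300 bp the share was 30.2% and 31.0%. In a window of 1000 bp, set against regions of at least 1000 bp, wide distal regions still held fewer matches, 49.1% (42.6 to 55.6) against 64.3% (62.3 to 66.1) in primary tumor and 52.3% (43.0 to 61.4) against 64.7% (62.3 to 67.0) in mets. At promoters the intervals then overlapped, 13.0% (11.1 to 15.2) against 15.2% (14.2 to 16.2) and 15.9% (12.5 to 19.99) against 16.9% (15.7 to 18.2). The center of a wide region need not be its most accessible point, since the lists give no summit.

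Among other motifs, the lower shares of CTCF and RUNX at wide distal regions were not distinguishable from the background in the longer window. The CTCF consensus, searched on both strands, was found at the center of 0 of 224 and 0 of 109 wide distal regions, which allows up to 1.69% and 3.404%, against 4.69% and 4.79% of other distal regions. In the 1000 bp window it was found in 1.79% (0.697 to 4.50) against 3.12% and in 0.917% (0.162 to 5.01) against 2.83%, with both intervals spanning the background. RUNX (TGTGGTTT) was found in 1.79% (0.697 to 4.50) of wide distal regions against 5.28% in primary tumor and in 3.67% (1.44 to 9.06) against 6.12% in mets, and in the longer window in 11.2% (7.67 to 16.0) against 13.6% and 13.8% (8.52 to 21.5) against 15.1%. For FOXA (TGTTTAC) every interval at wide distal regions spanned the background. The shares were 4.02% (2.13 to 7.46) against 6.92% and 9.17% (5.06 to 16.1) against 7.45% at the center. In the longer window they were 18.8% (14.2 to 24.4) against 19.6% and 25.7% (18.4 to 34.6) against 20.8%. At promoters FOXA was rarer at the center of wide regions, with 1.27% (0.746 to 2.17) against 3.19% of other promoters in primary tumor. In mets it was found in 1.10% (0.427 to 2.78) against 3.53%. In the longer window the promoter intervals overlapped, with 6.37% (5.03 to 8.04) against 8.29% (7.56 to 9.10) and 7.12% (4.91 to 10.2) against 8.04% (7.15 to 9.02). HNF4 (CAAAGTCCA) was not found at the center of a wide distal region, which allows up to 1.69% and 3.404% and so spans the 1.02% of other distal regions of each list, and in the longer window it was found in 7 of 224 (3.13%) and 2 of 109 (1.83%), against 2.50% and 2.77%. For KLF, searched by its consensus, the longer window of wide distal primary tumor regions gave 9.82% (6.58 to 14.4) against 5.99% (5.11 to 7.01). At the center it was found in 2.23% (0.957 to 5.12) against 1.92%. In mets the longer window gave 10.1% (5.73 to 17.2) against 7.24% (6.06 to 8.62). The KLF intervals of the longer window overlapped in both lists, and the center interval spanned the background. ETS (CCGGAAGT) was found at the center of 2.84% (1.99 to 4.05) of wide promoters of primary tumor against 4.40% (4.09 to 4.73) of its other promoters. In mets it was found in 2.74% (1.49 to 4.97) against 4.52% (4.22 to 4.84), with overlapping intervals. In the longer window ETS was rarer at wide promoters of both lists, and the intervals did not overlap. The shares were 8.33% (6.79 to 10.2) against 12.1% (11.2 to 13.0) in primary tumor and 7.12% (4.91 to 10.2) against 11.8% (10.7 to 12.9) in mets.

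Wide primary tumor regions were found on all autosomes and X. They formed 3.17% of all primary tumor regions on chromosome 19 and 0.92% on X, and the primary tumor list held from 1.35 times (chromosome 13, 27 against 20) to 6 times (chromosome 14, 24 against 4) as many as the mets list. The share of wide primary tumor regions that were wide in mets ran from 16.7% on chromosomes 14 (6.68 to 35.9) and 18 (7.87 to 31.9) to 55.6% (37.3 to 72.4) on chromosome 13. The copy number of these chromosomes in the 2 lines was not measured in these data.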

How the data were processed

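Omni-ATAC-seq libraries were made per the labels from 16 samples. How the KPC libraries were processed is not given in the sources used here beyond tools named in the submitters' processing notes (Bowtie2 2.2.6, MACS2 2.1.1.20160309 and DiffBind, with builds hg38 and mm10). For each group 1 list of regions was analysed (4 in all), holding positions and a score that the authors deposited on no stated scale, so it was used only as a rank. How 4 replicates were combined is not stated. Region width was the end minus the start. All KPC ends lay inside mm10 chromosomes. Coordinates are 1-based. Promoters were regions within 1 kb of any start site in GENCODE vM21 (mouse) or v44 (human), and tRNA and microRNA genes came from the RefSeq annotation. A counterpart shared at least 1 bp and was called wide, split, narrower or none. Shares were given Wilson 95% intervals. Interval code was tested on simulated regions. The members, gene lists and comparisons were chosen with earlier results of these data known. Named were the 10 widest regions per list, the 10 widest distal ones, the 10 largest losses among narrower counterparts, the 10 with most pieces, the 5 covering most genes and wide genes of the fixed lists, from which the text gives a selection, and Pxn was added after its values were seen. A few items chosen by this rule are not reported here. Python 3.11.15, pandas 2.3.3, scipy 1.17.1 and pysam 0.24.0 were used.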

Additional observations from a re-analysis of the deposited data

How the results depend on the processing

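No paired analysis was possible because each group was deposited as 1 region list, which also left no replicate to leave out. Of 56 recomputed summary values, 23 stayed within 1.5 times the reported count or inside the reported interval and 33 moved.

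With a limit of 1000 bp the lists held 8566 (primary tumor) and 5310 (mets) wide regions, the promoter shares were 69.3% and 68.0%, the other list was wide at 56.6% and 91.3%, and it was split at 17.6% and 2.13%. With 2000 bp the counts were 82 and 21, the promoter shares 90.2% and 90.5%, the other list was wide at 23.2% and 90.5%, and mets was split at 70.7% of wide primary tumor regions. Joining regions under 500 bp apart gave 3097 and 2309 wide regions. Joining only the other list made it wide at 69.3% and 90.5% and split at 1.45% and 0%. With the same number of widest regions per list, the limit was 1702 bp in primary tumor and 1500 bp in mets. The primary tumor promoter share was then 86.3%, and mets was split at 50.8% of primary tumor regions. The other list was wide at 40.9% in each direction, where the same shared loci are counted from both sides. Protein-coding start sites alone gave promoter shares of 78.5% and 72.6%. A human limit of 1000 bp gave 82.8% and 86.4% of same-named genes. A 1000 bp window raised AP-1 matches to 49.1% and 52.3% of wide distal regions and to 13.0% and 15.9% of wide promoters, as a longer window must. A promoter distance of 500 bp or 2 kb, autosomes only, a stricter overlap rule, and regions above the median score left the values they were applied to inside their intervals or count tolerance.

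Except where the number was fixed by design, the primary tumor list held more wide regions than the mets list in each setting computed, and primary tumor regions were split in mets more often than the reverse. Region counts depend on an unknown number of reads per list, and the share of splits depends on how close regions were joined before deposit, which was not tested.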
